A study of Mus musculus with 2 samples.

Results

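The 10 genes described here encode receptor chains for interleukin 2 (IL-2) and related cytokines: Il2ra, Il2rb, Il2rg, Il4ra, Il7r, Il9r, Il21r, Il6ra, Il6st and Il10ra. They were taken by symbol from a deposited RNA sequencing table of 10219 genes, and all 10 were in it. No listed gene has a mean count over the 2 libraries below 50.5, and a receptor gene below that was not compared. The cells were regulatory T cells (Tregs) of adipose tissue, sorted from C57BL/6 mice aged 4 months. The control library came from Foxp3Cre mice and the knockout library from Hif1afl/fl;Foxp3Cre mice, with 1 library per genotype. Both genotypes carry Foxp3Cre, a Cre recombinase expressed with Foxp3, the transcription factor that defines Tregs. In the knockout it acts on a floxed Hif1a gene, whose product is the subunit of HIF-1, a transcription factor of low oxygen, that oxygen destabilises. The number of mice behind each library, the proteins used for the sort and the floxed exons of Hif1a are not stated in the labels. A single library per genotype gives no spread between animals, so the differences are described without a test, and the intervals given cover counting error only.

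Cytokine receptors of this kind are built from several chains and have no kinase of their own. They signal through Janus kinases bound to their tails, which phosphorylate STAT transcription factors. The common gamma chain, encoded by Il2rg, is shared by the receptors for IL-2, IL-4, IL-7, IL-9, IL-15 and IL-21, and each of these receptors adds private chains. The alpha chain of the IL-2 receptor, CD25, is encoded by Il2ra; it gives the receptor its high affinity and is abundant on Tregs, which depend on IL-2 made by other cells. The chain gp130, encoded by Il6st, serves IL-6 and its relatives, and Il10ra encodes the ligand-binding chain for IL-10.

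Summed over the listed genes, the control library had 13472317 counts and the knockout library 11337415. Levels are given as counts per 1000000 counts of scaled library size (CPM). Hif1a, at 1273 CPM in the control, was at 780 CPM in the knockout, 1.63-fold lower (95% counting interval 1.59 to 1.68); its counts cover the whole gene and not the floxed exons alone. The 11 pan T cell markers were all within 2-fold, with a median log2 ratio of knockout over control of 0.13. Foxp3 was present in both libraries, at 104 CPM in the control and 46.4 CPM in the knockout. Of 11 Treg markers, which include Foxp3 and Il2ra, 5 were lower by 2-fold or more, 1 was higher and 5 were within 2-fold. The adipose Treg genes Klrg1, Il1rl1 and Pparg were 36.6-fold, 35.6-fold and 21.3-fold lower, Lrrc32 was 3.05-fold higher, and Ikzf2 and Ikzf4 had log2 ratios of -0.14 and 0.05. Of 17 macrophage markers, 6 were among the listed genes and all 6 were higher by 2-fold or more in the knockout. Their log2 ratios ran from 3.21 to 7.17. Their summed level was 3657 CPM in the knockout against 245 CPM in the control, of which Ctss alone held 1849 and 200 CPM. The other 11, among them Adgre1, Csf1r and Mrc1, were not among the listed genes, and the table holds no gene with a count below 14 in the control or 12 in the knockout. A gene with a count below the lowest listed mean, 50.5, in 1 library was listed only through the other, which fixes its direction. Such genes were Lyz2, Pf4 and Fcgr1, with 35, 32 and 50 control counts. Pparg and the dendritic cell marker Xcr1, with 48 and 47 knockout counts, were listed only through the control. Of 10 dendritic cell markers, 7 were listed, 5 higher and 1 lower by 2-fold or more. The lower gene was Xcr1, 3.37-fold (2.43 to 4.74). The summed level of the list was 2389 CPM in the knockout against 741 CPM in the control. Most of it came from Cd74, H2-Ab1, H2-Aa and H2-Eb1, at 1068, 626, 419 and 234 CPM in the knockout. In the control they held 362, 156, 106 and 85.7 CPM. Which cells this RNA came from was not tested. Outside these genes, only Zbtb46 was higher by 2-fold or more, and Flt3 stayed just within 2-fold on CPM + 0.5. Of 7 natural killer and innate lymphoid markers, 3 were listed and all 3 were higher by 2-fold or more. Among them, Tyrobp is also a myeloid gene, and Klrd1, with 14 control counts, was listed only through its knockout count. Of the B cell, CD8 T cell and adipocyte or stromal lists, 2 of 6, 1 of 2 and 1 of 8 genes were listed, and of these Ighm and Dcn were higher by 2-fold or more. In bulk samples such as these, fewer cells of a type and less RNA per cell cannot be told apart.

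The 10 chains spread widely around a small median difference. Il9r, Il2ra and Il10ra were lower by 2-fold or more in the knockout, Il6ra and Il21r were higher by as much, and Il2rb, Il2rg, Il7r, Il6st and Il4ra were within 2-fold. Over all listed genes, 8.41% were lower and 10.9% higher by 2-fold or more, 19.3% in either direction. The median log2 ratio of the 10 chains was -0.35, with members from -2.87 to 2.12, beside a median of 0.0054 over all listed genes. Among the 10219 ratios, counted from the lowest, Il9r ranked 44, Il2ra 48 and Il10ra 168. Counted from the highest, Il6ra ranked 312 and Il21r 718. Summed over the 10 chains, the level was 6419 CPM in the control and 2177 CPM in the knockout, and Il2ra held most of this gap.

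**Figure D1:**
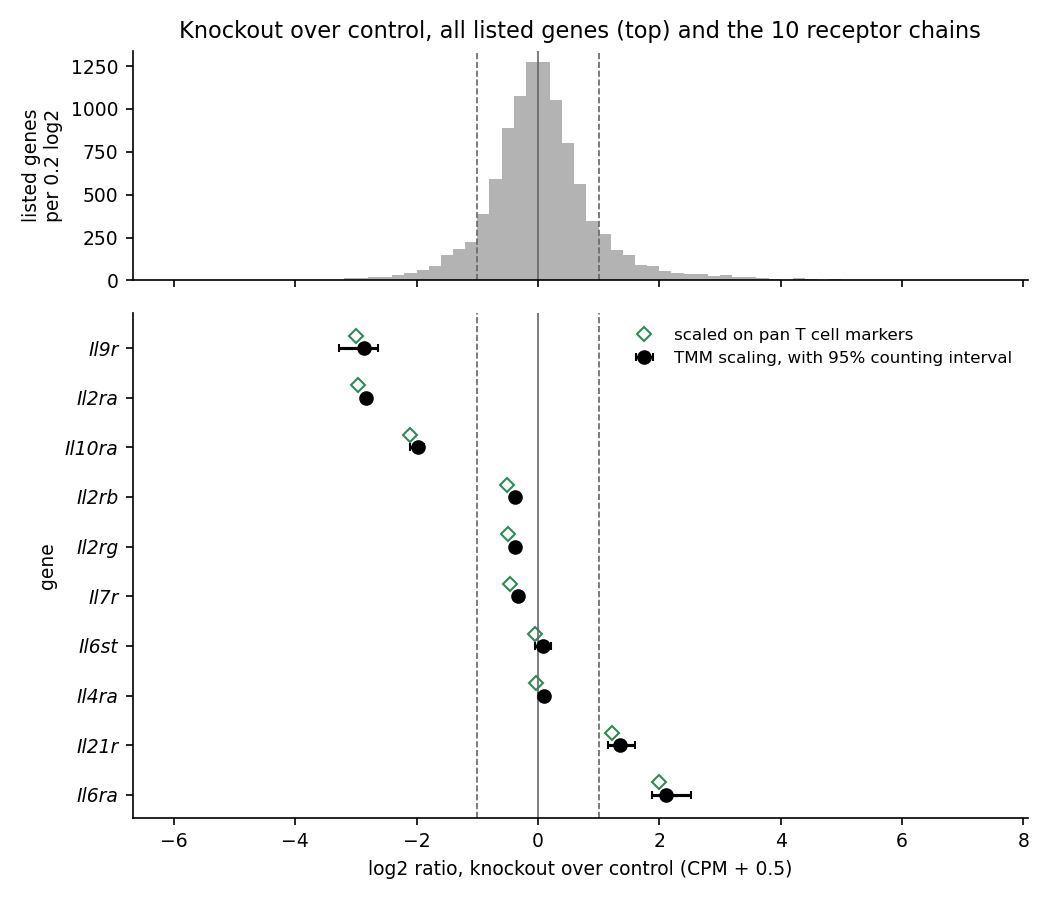
The top panel shows how many of the 10219 listed genes fall in each step of log2 ratio (knockout over control, on CPM + 0.5), and the lower panel shows the 10 receptor chains. Filled points are TMM-scaled ratios with 95% counting intervals of the scaled counts, open diamonds are ratios scaled on pan T cell markers, and dashed lines mark 2-fold. Il9r, Il2ra and Il10ra lie left of the 2-fold line, Il21r and Il6ra right of it.

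Promoter sequences are shown for the chains past 2-fold that have an entry in the RefSeq promoter table (build GRCm38.p6), which matched 8 of the 10 symbols. Each run is the 250 bases before the annotated start, 5′ to 3′ on the strand of the gene. Capitals mark ACGTG or GCGTG, the core letters of the element that HIF-1 binds, searched on both strands.
Il2ra, chr2:11642542-11642791, plus strand: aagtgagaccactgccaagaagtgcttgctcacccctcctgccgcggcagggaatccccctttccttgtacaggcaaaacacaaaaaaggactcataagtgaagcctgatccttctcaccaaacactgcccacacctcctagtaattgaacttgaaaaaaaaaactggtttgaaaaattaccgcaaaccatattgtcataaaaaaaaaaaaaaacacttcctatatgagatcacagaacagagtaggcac
Il9r, chr11:32200280-32200529, minus strand: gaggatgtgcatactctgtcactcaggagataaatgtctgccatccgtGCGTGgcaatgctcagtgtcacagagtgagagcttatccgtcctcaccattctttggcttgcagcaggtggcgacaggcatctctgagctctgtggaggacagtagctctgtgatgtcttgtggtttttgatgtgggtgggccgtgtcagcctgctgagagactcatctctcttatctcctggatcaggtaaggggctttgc
Il21r, chr7:125603179-125603428, plus strand: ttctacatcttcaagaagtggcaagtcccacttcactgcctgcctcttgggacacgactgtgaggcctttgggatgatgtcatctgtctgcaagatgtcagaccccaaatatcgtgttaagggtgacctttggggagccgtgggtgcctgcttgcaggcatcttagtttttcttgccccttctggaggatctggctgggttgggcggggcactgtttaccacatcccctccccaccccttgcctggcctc
Il6ra, chr3:89913197-89913446, minus strand: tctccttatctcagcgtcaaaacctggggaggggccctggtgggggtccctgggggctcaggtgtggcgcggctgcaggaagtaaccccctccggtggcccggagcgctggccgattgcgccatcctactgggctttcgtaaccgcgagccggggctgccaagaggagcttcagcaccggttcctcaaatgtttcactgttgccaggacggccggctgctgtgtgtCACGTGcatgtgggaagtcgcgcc
In these windows the letters ACGTG occurred in Il6ra, where both strands read them in the overlapping palindrome CACGTG, which is also the E-box of other factors. GCGTG occurred in Il9r, and neither form was in the windows of Il2ra or Il21r. Among the other members with an entry, GCGTG occurred in Il2rg and Il4ra, which were within 2-fold. Of the 32851 promoters in the table, 16.6% hold ACGTG and 28.2% hold GCGTG in the same window. TTCNNNGAA, the core letters that STAT factors bind, were found in 1 of the 8 member windows, that of Il7r, and in 7.02% of all promoters. A match of letters is a description of the sequence and does not show binding.

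The chains of the IL-2 receptor itself did not differ alike between the libraries. Il2ra (ENSMUSG00000026770) had 57777 counts (4346 CPM) in the control library, against 6991 counts (608 CPM) in the knockout. It ranked 16 among all listed genes by CPM in the control and 215 in the knockout library, and its level was 7.14-fold lower in the knockout library (counting interval 6.97 to 7.32). Il2rb (ENSMUSG00000068227), the beta chain that IL-2 and IL-15 receptors share, had 4246 counts (319 CPM) in the control library, against 2832 counts (246 CPM) in the knockout. That is 1.30-fold lower (1.24 to 1.36). Il2rg (ENSMUSG00000031304), the common gamma chain, had 6900 counts (519 CPM) in the control library, against 4615 counts (402 CPM) in the knockout, 1.29-fold lower (1.24 to 1.34). The signalling chains of the receptor thus stood slightly lower and by nearly the same factor, and the affinity chain much lower. In the GENCODE M21 annotation, 30.5% of the exon length of Il2rg overlaps the gene model Gm20489 on the same strand, and whether reads in the overlap were counted is not stated. For Il4ra and Il6ra, 9.51% and 2.80% of the exon length overlap a gene model on the opposite strand.

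Levels of different chains were compared per kilobase of exon length. In the control library Il2ra led with 761 CPM per kb, followed by Il2rg with 217 and Il7r with 140 CPM per kb. Il10ra with 74.9 and Il2rb with 74.5 CPM per kb came next, and their counting intervals overlapped. Il4ra stood at 25.7, Il9r at 12.5, Il6st at 6.80, Il21r at 5.32 and Il6ra at 0.888 CPM per kb. Il2ra was thus first and Il6ra last in the control library. In the knockout library Il2rg led with 168 CPM per kb. Il7r with 111 and Il2ra with 107 CPM per kb followed, again with overlapping counting intervals. Below them stood Il2rb at 57.5, Il4ra at 27.6, Il10ra at 18.9, Il21r at 13.8, Il6st at 7.20, Il6ra at 4.05 and Il9r at 1.62 CPM per kb. Il2ra therefore moved from the first to the third place in this order, and Il9r from the seventh to the last. As a share of the counts over the 10 genes, Il2ra took 67.7% in the control (exact Clopper-Pearson interval 67.4 to 68.0) and 28.0% in the knockout library (27.4 to 28.5).

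**Figure D2:**
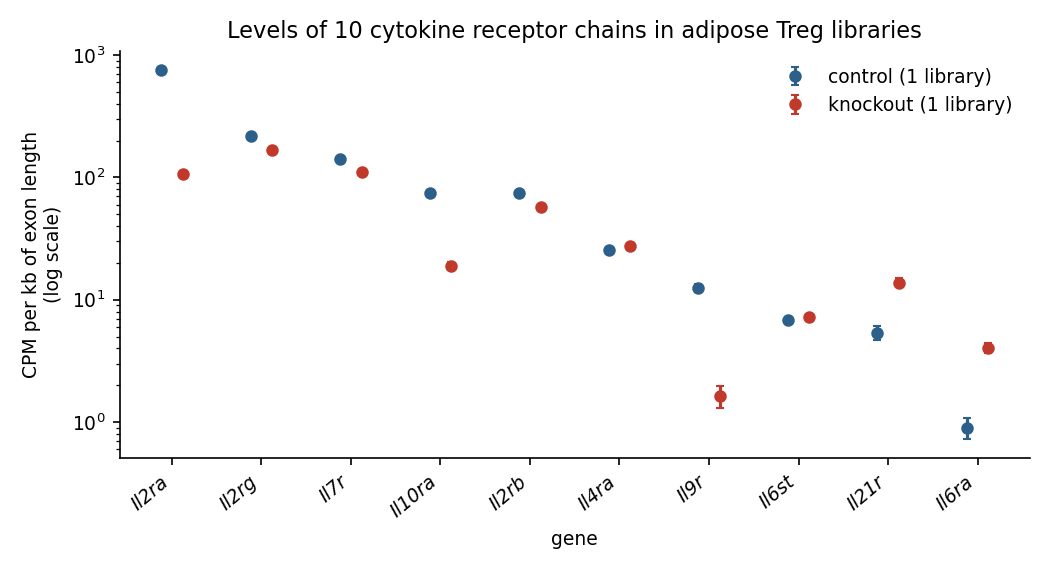
Levels of the 10 chains in CPM per kb of exon length on a log axis, control in blue and knockout in red, with bars for the 95% Poisson interval of the count where it is wider than the point. Il2ra drops from 761 to 107 CPM per kb and Il10ra from 74.9 to 18.9, while Il6ra and Il21r, among the lowest chains in the control library, are higher in the knockout library.

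The private partners of the common gamma chain went in different directions. Il9r (ENSMUSG00000020279), the alpha chain of the IL-9 receptor, had 820 counts (61.7 CPM) in the control library, against 92 counts (8.01 CPM) in the knockout. It was 7.70-fold lower (6.20 to 9.66), with the lower level resting on few counts. Il21r (ENSMUSG00000030745), the private chain of the IL-21 receptor, had 235 counts (17.7 CPM) in the control library, against 526 counts (45.8 CPM) in the knockout; it was 2.59-fold higher (2.22 to 3.03). Myeloid and B cells also express Il21r. The summed macrophage marker level, of which Ctss held the largest part, was 245 CPM in the control and 3657 CPM in the knockout. The part of such cells in this difference was not tested. Il7r (ENSMUSG00000003882), the IL-7 receptor chain of naive and memory T cells, had 8700 counts (654 CPM) in the control library, against 5972 counts (520 CPM) in the knockout. It was 1.26-fold lower (1.22 to 1.30), close to the factor of Il2rg. Il4ra (ENSMUSG00000030748), the IL-4 receptor chain found on most blood cells, had 2054 counts (155 CPM) in the control library, against 1901 counts (165 CPM) in the knockout. Its fold of 1.07 (1.005 to 1.14) was near equality, and scaling on pan T cell markers turned its log2 ratio from 0.10 to -0.03.

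For the IL-6 receptor, the ligand-binding chain differed and the signalling chain did not pass 2-fold. Il6ra (ENSMUSG00000027947), which binds IL-6, had 102 counts (7.67 CPM) in the control library, against 402 counts (35.0 CPM) in the knockout, 4.56-fold higher (3.66 to 5.72). Il6st (ENSMUSG00000021756), which encodes gp130, had 1004 counts (75.5 CPM) in the control library, against 918 counts (79.9 CPM) in the knockout. Its fold was 1.06 (0.966 to 1.16), an interval that includes equality, and scaling on pan T cell markers turned its log2 ratio from 0.08 to -0.05. Monocytes, macrophages and naive T cells express Il6ra. The 6 listed macrophage markers were all higher in the same library, though Lyz2, Pf4 and Fcgr1 were listed only through it. The part of such cells in the Il6ra difference was not tested. The protease genes Adam10 and Adam17, whose products shed the IL-6 receptor from the cell surface, had log2 ratios of 0.61 and 0.26. Thus 0 of 2 passed 2-fold, where 19.3% of all listed genes did.

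The IL-10 receptor showed the opposite pattern in its binding chain. Il10ra (ENSMUSG00000032089) had 3484 counts (262 CPM) in the control library, against 760 counts (66.1 CPM) in the knockout; it was 3.96-fold lower (3.66 to 4.29). Macrophages also express Il10ra, and their markers were higher in the library where Il10ra was lower; their part in the Il10ra difference was not tested. Il10rb, the second chain of the IL-10 receptor, which IL-22 and other receptors share, had 998 counts (75.1 CPM) in the control library, against 1098 counts (95.6 CPM) in the knockout, 1.27-fold higher (1.17 to 1.39). The ligand gene Il10, made by adipose Tregs and many other immune cells, had 5159 counts (388 CPM) in the control and 284 (24.7 CPM) in the knockout, 15.7-fold lower (13.9 to 17.8). Receptor chain and ligand of the IL-10 system were thus both lower in the knockout library, and the shared chain was not.

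Ratios of counts within a library need no scaling between libraries, and they show only whether genes differed unequally. Per count of Il2rg, Il2rb had 0.615 counts in the control and 0.614 in the knockout, a fold of 0.997 (Wald interval from Poisson counts 0.939 to 1.06). For Il7r the ratio to Il2rg was 1.26 in the control and 1.29 in the knockout, a fold of 1.03 (0.977 to 1.08). Il2rb, Il2rg and Il7r therefore kept their proportions within counting error. Per count of Il2rg, Il2ra had 8.37 counts in the control and 1.51 in the knockout, 5.53-fold lower (5.29 to 5.78). Per count of Foxp3, which was itself 2.24-fold lower in the knockout library (2.02 to 2.48), Il2ra had 41.9 counts in the control and 13.1 in the knockout, 3.19-fold lower (2.88 to 3.54). Il2ra was thus lower by a larger factor than Foxp3.

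The same ratios were taken for the other receptors. Il10ra per Il10rb was 3.49 in the control and 0.692 in the knockout, 5.04-fold lower (4.49 to 5.67). Il6ra per Il6st was 0.102 in the control and 0.438 in the knockout, a 4.31-fold higher ratio (3.41 to 5.45). In each pair the ligand-binding chain differed far more than the shared chain. Il9r per Il2rg was 5.96-fold lower (4.79 to 7.42), and Il21r per Il2rg was 3.35-fold higher (2.86 to 3.92). Il4ra and Il6st per Il2rg were 1.38-fold (1.29 to 1.49) and 1.37-fold (1.24 to 1.51) higher.

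**Figure D3:**
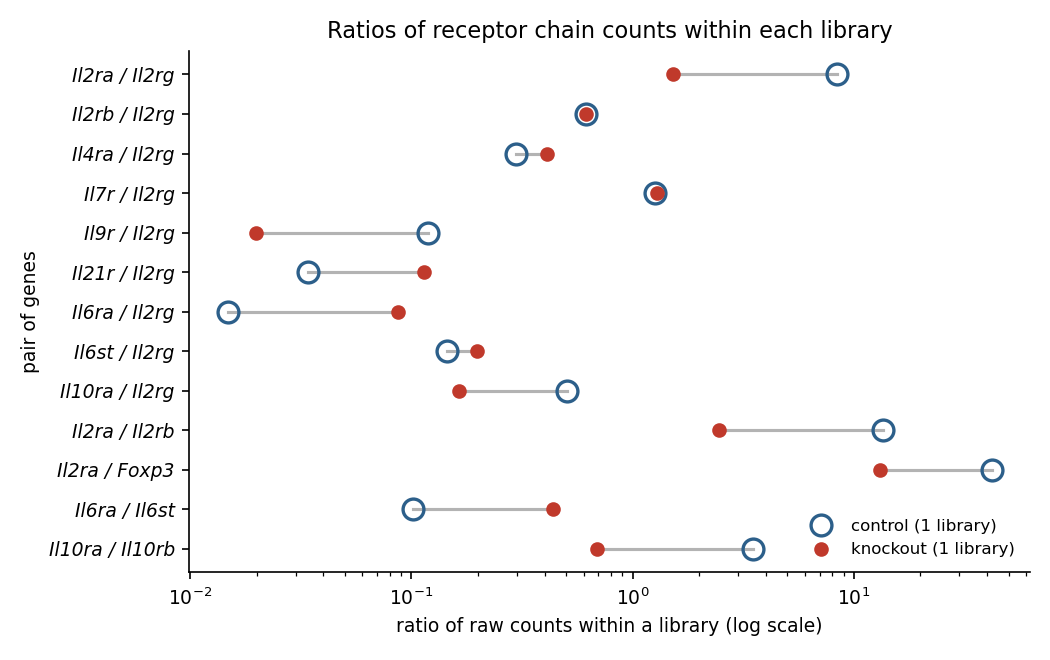
Ratios of raw counts for 13 pairs of genes within each library on a log axis; open blue circles are the control and filled red points the knockout library. The points of Il2rb per Il2rg and Il7r per Il2rg lie on each other, while Il2ra per Il2rg falls from 8.37 to 1.51 and Il10ra per Il10rb from 3.49 to 0.692.

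The ligands of these receptors were mostly not among the listed genes. Of 22 ligand genes, 7 were listed, with 2 higher and 3 lower by 2-fold or more, beside 10.9% and 8.41% of all listed genes. Il2, Il4, Il7, Il9 and Il21 were not listed, which leaves their levels unknown. Beside Il10, the gp130 ligand gene Lif was lower, 4.70-fold (3.33 to 6.79), from 212 counts in the control and 39 in the knockout. With a knockout count below the lowest listed mean of 50.5, Lif was listed only through the control. Il15, whose product signals through the beta and gamma chains, was 3.42-fold higher (2.88 to 4.09), from 174 and 515 counts. Clcf1, a ligand of the gp130 family, was 2.75-fold higher (2.27 to 3.35). Macrophages produce IL-15, and their markers were higher in the same library; their part in the Il15 difference was not tested.

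Other chains of the same receptor families were compared next. Of 15 such genes, 7 were listed, 2 were higher and 0 lower by 2-fold or more, and the median log2 ratio was 0.18. Over all listed genes, 10.9% were higher and 8.41% lower by as much. Il13ra1, which pairs with the IL-4 receptor chain to bind IL-13, was 10.3-fold higher (6.997 to 15.7), from 29 and 258 counts. Whether macrophage RNA, with summed marker CPM of 245 in the control and 3657 in the knockout, added to the Il13ra1 difference was not tested. Il11ra1, the IL-11 receptor chain, was 2.52-fold higher (1.65 to 3.94), from 33 and 72 counts. The control counts of Il13ra1 and Il11ra1 are below the lowest listed mean count, 50.5. Both genes were thus listed only through their knockout counts, which fixes their direction. The IL-15 receptor alpha chain Il15ra, chosen after its value was seen, had a log2 ratio of 0.18. In these bulk libraries it did not share the difference of Il2ra, and the part of macrophage RNA in its level was not tested. Of 19 further cytokine receptor genes, 9 were listed, 4 were higher and 1 lower by 2-fold or more, and the median was 0.89. The myeloid growth factor receptor genes Csf2ra and Csf2rb2 were 8.59-fold (5.78 to 13.2) and 6.46-fold (5.55 to 7.54) higher, beside the higher macrophage markers, whose part was not tested. Csf2ra, with 28 control counts, was listed only through its knockout count. Il12rb1, a chain of the IL-12 and IL-23 receptors, was 3.04-fold lower (2.54 to 3.65). The interferon gamma receptor gene Ifngr1, the most abundant of this list, had a log2 ratio of 0.26.

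Downstream of the receptors, 0 of 4 kinase genes and 2 of 7 STAT genes passed 2-fold, where 19.3% of all listed genes did. In lists this small, these counts do not set the genes apart from that share. All 4 Janus kinase genes were within 2-fold, with a median log2 ratio of 0.04, or -0.09 under the scaling on pan T cell markers; Jak1, the most abundant, was at 0.18. Jak3, the kinase bound to the common gamma chain, was chosen after its value was seen; it was at 46.6 CPM in the control and 27.8 CPM in the knockout, 1.68-fold lower (1.46 to 1.93). Of 7 STAT genes, 6 had a log2 ratio above 0 and 2 were higher by 2-fold or more, around a median of 0.61. Stat5a and Stat5b, which carry the IL-2 signal, were 2.06-fold (1.88 to 2.25) and 2.09-fold (1.96 to 2.22) higher; under the scaling on pan T cell markers, 0 of 7 passed 2-fold and 6 stayed above 0. Stat3, the main factor of IL-6 and IL-10 signalling, had a log2 ratio of -0.16. Il2ra was lower in the library with the higher Stat5a and Stat5b levels, and neither a link between them nor the part of macrophage RNA was tested.

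Inhibitors and responders of the pathway were also read. Of 15 feedback inhibitor and phosphatase genes, 1 was higher and 0 lower by 2-fold or more, and the median log2 ratio was 0.28. Ptpn6, a phosphatase abundant in blood cells, was 2.61-fold higher (2.26 to 3.02), and the part of macrophage RNA in this difference was not tested. Cish, which STAT5 induces and which damps IL-2 signalling, was at 374 CPM in the control and 214 CPM in the knockout, 1.75-fold lower (1.66 to 1.83). Of 20 genes known to be induced by IL-2 or STAT5 in T cells, 5 were lower and 3 higher by 2-fold or more and 12 were within 2-fold. Over all listed genes, 8.41% were lower and 10.9% higher. Of the 20, 15 had a log2 ratio below 0, and the median was -0.56, where 5071 of the listed genes were below 0 and 5146 above. Foxp3, Ctla4, Tnfrsf4 and Tnfrsf18 are in this list and among the Treg markers, so the 2 lists are not separate. Myc, a growth regulator, was 6.76-fold lower (6.03 to 7.61) and Prdm1, which encodes the effector factor Blimp-1, 5.30-fold lower (4.81 to 5.86). Tnfrsf9, the costimulatory receptor 4-1BB, had the highest control CPM of them, not corrected for length, and was 3.65-fold lower (3.59 to 3.72). Bcl2, a survival gene, was 6.20-fold higher (5.64 to 6.82) and Lta, which encodes lymphotoxin alpha, 2.93-fold higher (2.62 to 3.28). The list did not move as a block, and many of its genes answer to other signals as well.

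**Figure D4:**
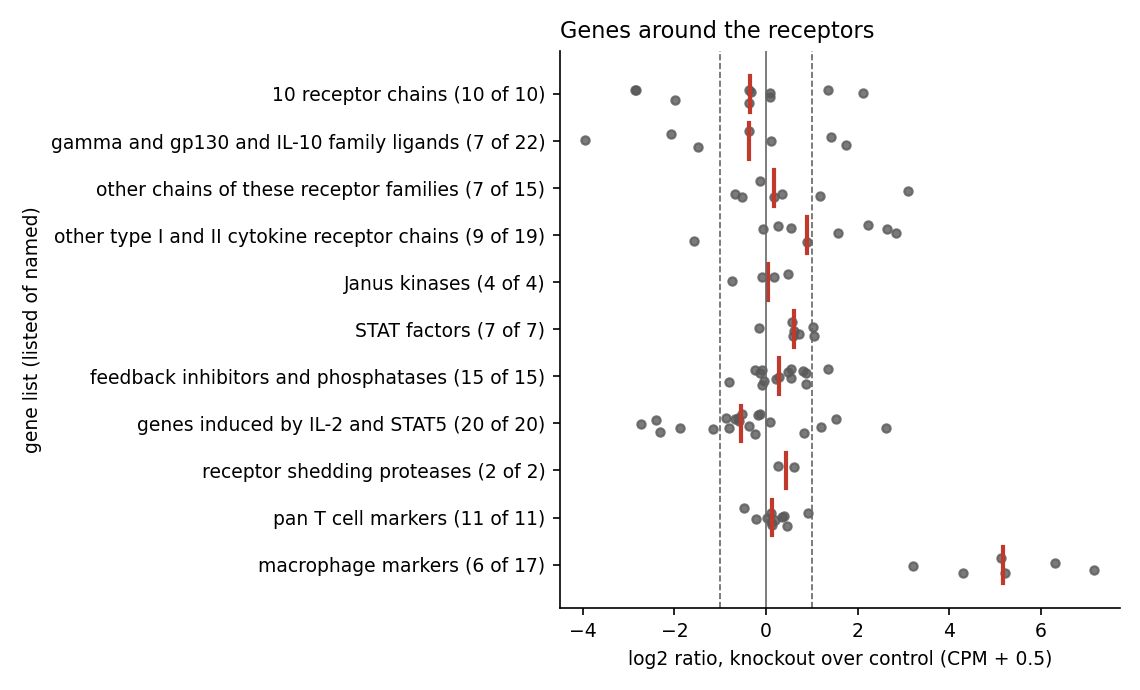
Each point is a listed gene, placed by its log2 ratio of knockout over control (CPM + 0.5), in rows by gene list; red bars are list medians and dashed lines mark 2-fold. Of the 7 STAT genes, 6 lie right of 0 and 2 past the 2-fold line. The genes induced by IL-2 and STAT5 spread to both sides with a median of -0.56. The listed macrophage markers all lie right of 3, and of these Lyz2, Pf4 and Fcgr1 were listed only through their knockout counts.

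By log2 ratio, the genes most like Il2ra were sought among the 1981 genes with at least 100 CPM in the control library. The 3 nearest to its ratio of -2.84 were Frmd5 at -2.86, Dnajb13 at -2.87 and Psat1 at -2.91. Likeness here rests on a single ratio from 2 libraries. In the authors' deposited table, 9 of the 10 chains have an adjusted p-value under 0.05, where 73.3% of all listed genes do; that p-value compares 2 libraries, not the genotypes.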

How the data were processed

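RNA of sorted adipose Tregs was sequenced as 150 bp paired-end reads, 1 library per genotype, per the labels' protocols. Bowtie2 2.2.3, TopHat2 2.0.12, HTSeq 0.6.1, edgeR and a build named mm8 are given in the submitters' processing notes; the annotation and strand setting are not stated there. The authors deposited whole-number read counts per gene, not normalized, with a mean of the counts, a signed count ratio and a likelihood ratio statistic, each a score here. The authors' log2 fold change, log2 CPM and p-value columns carry edgeR's names, per the file headers. Columns were tied to genotypes through the library name in each sample's description.

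Counts were scaled by TMM (edgeR 4.0.16, R 4.3.3), and log2 ratios were taken on CPM + 0.5. Printed folds have no pseudocount and carry 95% Clopper-Pearson intervals (scipy 1.17.1), which cover counting error only. They treat each read as a separate molecule, which PCR copies are not, so they can be too narrow. A size rule of 2-fold replaced a test, because 1 library per genotype gives no spread. Exon lengths came from GENCODE M21 (10200 of 10219 IDs matched), on another build than the one named, so no gene coordinates from it are given. Named genes were the members, Hif1a, Foxp3, for each of 8 pathway lists up to 2 genes past 2-fold at each end plus the most abundant by CPM, and the 3 genes nearest to Il2ra; Adam17, Jak3, Il15ra and the cell type markers named lie outside this rule and were chosen after their values were seen. Members and lists were chosen with earlier results of these data known. Scaling and ratios were tested on simulated data. DESeq2 1.42.0 size factors, total counts, pan T cell markers, other pseudocounts, filters and fold rules were tried as alternatives.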

Additional observations from a re-analysis of the deposited data

How the results depend on the processing

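Under 7 other scalings, pseudocounts and filters, the counts stayed at 3 lower and 2 higher chains, and 68 of 70 chain ratios kept their sign. Over all listed genes, 5.74% to 10.8% were lower and 7.38% to 11.5% higher under these settings. The filter at 10 CPM dropped no chain and left each ratio as it was, so it is no check of the chain ratios. A pseudocount added to both libraries cannot change the sign of a ratio, so the pseudocount settings are no check of sign. The scalings shift all genes nearly alike, by 0.13 at most in the median, so only chains near 0 could change sign. Total counts and DESeq2 size factors moved the median of all listed genes only by 0.038 and -0.0054. Scaling on pan T cell markers lowered the median of all listed genes by 0.13 and turned Il4ra to -0.033 and Il6st to -0.051; by construction it shifts each gene equally. The log2 ratio of Il2ra, -2.84, became -2.97 in that scaling and -2.80 with total-count scaling. With scaling on pan T cell markers, 923 listed genes were at least 2-fold higher and 1099 lower, against 1115 and 859 with TMM. At 4-fold, 1 chain was higher and 2 were lower, where 3.42% of all listed genes were higher and 1.58% lower. Il2ra per Il2rg was 0.181 of the control ratio; gene length cancels in it, so the value per base is the same by construction and is no check. No paired analysis was possible because there is 1 library per genotype, and leaving out a library leaves no comparison. The low counts of Il9r in the knockout and Il6ra in the control library limit their folds most.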
